A study of Mus musculus with 6 samples.

Results

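The 44 genes described here handle lipid in macrophages: the liver X receptors (LXR) with their partner and targets, and the genes that make, take up, store, release and oxidize fatty acids. They were chosen by gene name, with earlier results of these data known. All 44 names were found among the 55401 rows of the expression table. Of them, 42 reached 0.5 FPKM (fragments normalized for transcript length and library size) in at least 3 of the 6 libraries, as did 12084 genes in all, and were tested. Elovl6, a fatty acid elongase, and Pdk4, a mitochondrial kinase that restrains glucose oxidation, stayed below that level and were not tested.

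RNA was sequenced from bone-marrow-derived macrophages (BMDM), which are grown from mouse marrow precursors, here for 7 days with medium from L929 cells, a fibroblast line that secretes the macrophage growth factor CSF1. All 6 samples were exposed to 5 µM L-OHP (oxaliplatin, a platinum drug used in chemotherapy) for 12 h. The 3 samples of the L-OHP group received only the drug. The 3 samples of the L-OHP+FUC group were first given 250 µg/ml fucoidan, a sulfated polysaccharide of brown algae, for 12 h. Strain, sex and age of the mice are not given in the labels, cells without L-OHP were not analysed here, and every difference is therefore between drug-exposed macrophages with and without fucoidan. The labels do not say whether the replicates were separate animals or cultures, and the p-values then reflect no more than the spread among these 6 samples, part of which may be technical. FPKM are relative to each library's total, and in such bulk samples fewer cells of a type and less RNA per cell cannot be told apart.

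Macrophages take up modified lipoproteins and dying cells and so receive more cholesterol and fatty acid than they can use at once. Surplus is esterified and kept in lipid droplets, whose surface carries perilipins, and is released again by lipases. LXRs sense oxysterols, bind DNA together with retinoid X receptors, and switch on genes that move cholesterol out of the cell, such as Abca1 and Abcg1. Fatty acids are activated with coenzyme A by acyl-CoA synthetases and are then built into droplets or carried as carnitine esters into mitochondria, where they are oxidized.

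Each library had an implied depth of 15.8 to 18.8 M (mega) fragments, and the deposited values hold no counts. Genes at 1 FPKM or more numbered 10711 to 10813 with L-OHP and 9841 to 10188 with L-OHP+FUC. All 10 macrophage markers were detected in every library, and their summed level was 13822 to 19202 FPKM with L-OHP and 14724 to 15504 FPKM with L-OHP+FUC, most of it from Lyz2. Within this list Csf1r rose (log2 fold change 0.47), Mertk (-0.74) and Fcgr1 (-0.69) fell, and 7 did not pass. Of all tested genes, 7.67% rose and 19.3% fell. Of 8 adipocyte markers, chosen because fat cells share many of these lipid genes, 7 stayed under 0.5 FPKM in every library, and 5 of these were listed at 0 in all of them, while the summed level of the list was 5.03 to 6.26 and 6.18 to 7.35 FPKM. Summed over 7 markers of erythroid cells and megakaryocytes, of which 4 stayed under 0.5 FPKM everywhere and Pf4 made up most, the level was 17.1 to 21.7 FPKM with L-OHP and 33.1 to 35.7 FPKM with L-OHP+FUC. Both markers tested, Pf4 (0.73) and Ppbp (0.63), rose. Summed over 8 neutrophil markers, of which 6 stayed under 0.5 FPKM everywhere, the level was 3.79 to 4.26 and 5.45 to 6.35 FPKM. Of the 2 tested, S100a8 rose (0.54) and Camp did not pass. Of 7 osteoclast markers, summed to 157 to 223 FPKM with L-OHP and 150.2 to 158 FPKM with L-OHP+FUC, 3 stayed under 0.5 FPKM everywhere, Acp5 rose (1.01) and Atp6v0d2 fell (-0.83). The 8 fibroblast markers summed to 5.25 to 12.5 and 8.13 to 8.59 FPKM, and none of the 5 tested passed. The part of these lists in the results was not tested. All 7 dendritic cell markers and 6 of 7 lymphocyte markers stayed under 0.5 FPKM in every library.

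Macrophages given fucoidan carried more mRNA of the droplet coat protein Plin2 and of both carnitine palmitoyltransferases, Cpt1a and Cpt2, and less mRNA of the cholesterol exporters Abca1 and Abcg1 and of lipoprotein lipase, Lpl. By limma with Benjamini-Hochberg adjustment over all tested genes, 5 of the 42 members rose, 5 fell and 32 did not pass an adjusted p of 0.05. That is 23.8% of the members, against 27.0% of all tested genes. Dgat1 and Lpcat3 also rose, and Acsl3 and Nceh1 also fell. Of the called members, only Plin2 and Cpt1a passed in all 15 alternative settings. Abca1 passed in 13, Abcg1 in 9, and Cpt2 and Lpl in 8 each. Taken by direction, 7.67% of all tested genes rose and 19.3% fell. With the libraries rescaled to their median ratio 8 members rose and 3 fell, where 1581 of all 12084 genes rose and 1680 fell. With GC content and transcript length corrected for, 5 members rose and 2 fell, where 1390 of 12074 genes rose and 1437 fell. The lean of all genes towards lower levels thus depended on the scaling. The 2 groups did not overlap for 16 of the 42 members, against 47.0% of all tested genes. Neither share of the members was above that of all genes. The median log2 fold change, L-OHP+FUC relative to L-OHP on the log2(FPKM + 1) scale, was 0.03 over the members and -0.10 over all tested genes. That last median moved to 0.03 under quantile normalization, and a member near -0.10 therefore stands at the middle of the genes.

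**Figure D1:**
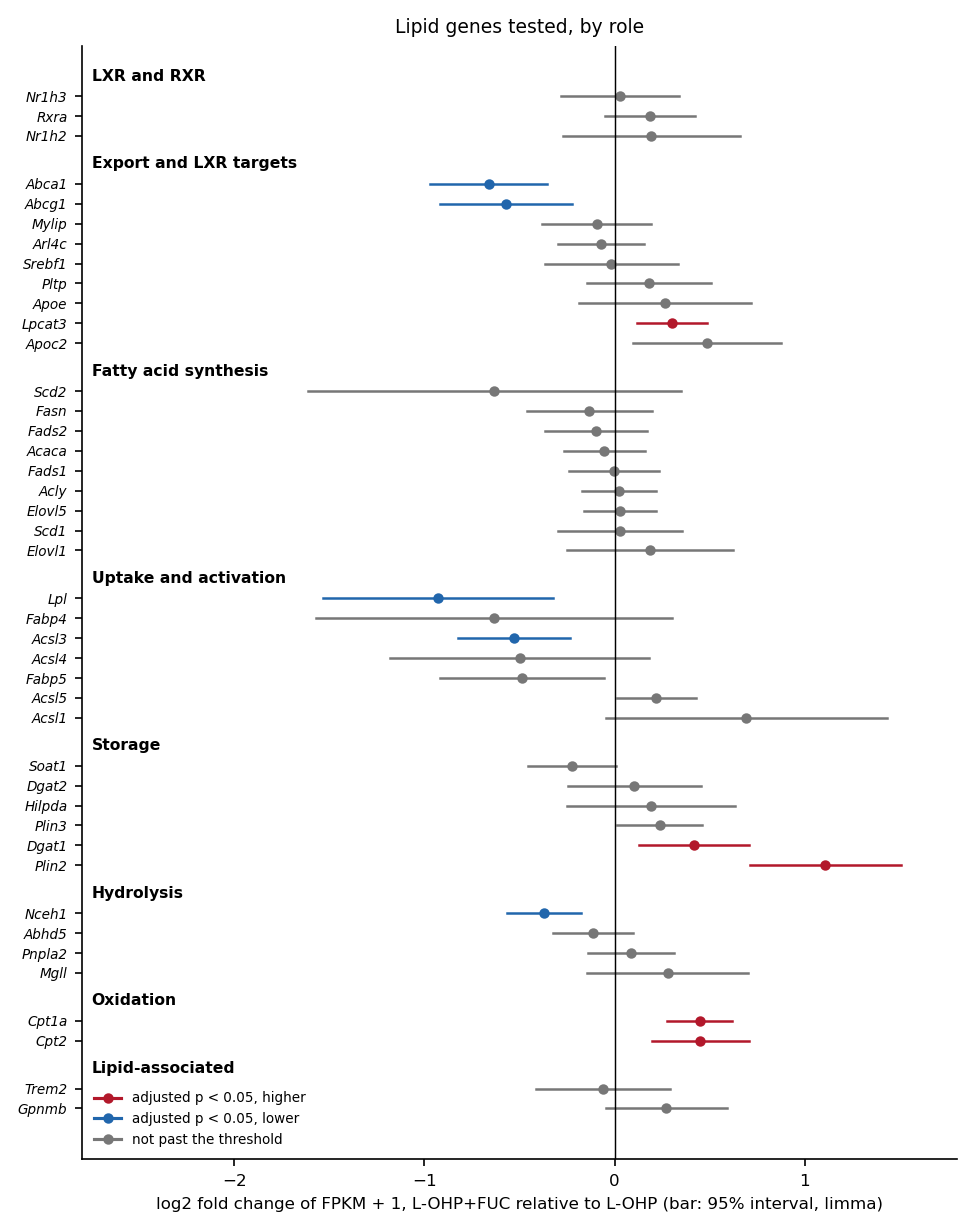
The log2 fold change of each of the 42 tested members, L-OHP+FUC relative to L-OHP, is plotted with its 95% confidence interval, grouped by role. Plin2 lies farthest to the right at 1.11 and Lpl farthest to the left at -0.93, and no gene of fatty acid synthesis or of the sensor group passed the threshold.

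Plin2, a perilipin that coats lipid droplets and is stabilized by them, was the most changed member. It lies on chromosome 4 at chr4:86648386-86670060 of mm10, on the minus strand. In L-OHP replicates 1 to 3 its level was 156, 107 and 164 FPKM, and in L-OHP+FUC replicates 1 to 3 it was 309, 302 and 297 FPKM, the order in which all library values are given. All 3 L-OHP+FUC libraries were close together and stood above every L-OHP library, among which replicate 2 was lowest. The mean rose from 142 ± 30.7 to 303 ± 6.32 FPKM (SD, n = 3), a log2 fold change of 1.11 (SE 0.17, limma adjusted p = 0.00842). Plin2 passed the threshold under all 15 alternative settings (adjusted p = 0.00623 to 0.0392). The related coat protein Plin3, which is exchanged between the cytosol and droplets, stood at 20.8, 24.02 and 23.8 FPKM with L-OHP and 28.03, 28.2 and 25.1 FPKM with L-OHP+FUC (log2 fold change 0.24, limma adjusted p = 0.107). The groups did not overlap for Plin3 either, but the ratio of Plin2 to Plin3 was 7.49, 4.47 and 6.88 with L-OHP and 11.04, 10.7 and 11.8 with L-OHP+FUC, higher in every L-OHP+FUC library than in any L-OHP library.

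Of the enzymes that make the stored esters, Dgat1, which adds the last acyl chain of triglyceride, stood at 3.52, 4.001 and 2.91 FPKM with L-OHP and 5.14, 4.42 and 5.31 FPKM with L-OHP+FUC. It rose from 3.47 ± 0.549 to 4.96 ± 0.473 FPKM (mean ± SD, n = 3), with a log2 fold change of 0.42 (SE 0.12, limma adjusted p = 0.0456), close to the threshold. The call was kept in 5 of 14 alternatives; it was lost after the correction for GC content and length (adjusted p = 0.101) and without any library except L-OHP replicate 2 (0.0780 to 0.131). Its unrelated counterpart Dgat2 was low, at 0.617, 0.693 and 0.348 FPKM with L-OHP and 0.962, 0.573 and 0.485 FPKM with L-OHP+FUC, with overlapping groups (adjusted p = 0.629). Soat1, which esterifies cholesterol for storage, stood at 39.5, 39.2 and 47.2 FPKM with L-OHP and 35.1, 35.6 and 36.3 FPKM with L-OHP+FUC, lower in all 3 L-OHP+FUC libraries but without a call (log2 fold change -0.22, limma adjusted p = 0.129). Its log2 fold change turned to 0.15 under the GC and length correction. Hilpda, a droplet protein that inhibits triglyceride breakdown, stood at 4.79, 2.73 and 4.93 FPKM with L-OHP and 4.74, 5.07 and 4.45 FPKM with L-OHP+FUC (adjusted p = 0.477). Thus 2 of 6 storage genes rose, none fell, and 4 did not pass, where 7.67% of all tested genes rose and 19.3% fell. Only Plin2 remained called when any one library other than L-OHP replicate 2 was left out.

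Cpt1a, the enzyme of the outer mitochondrial membrane that commits fatty acids to import, lies on chromosome 19 at chr19:3322334-3385733 on the plus strand. Its level was 18.1, 17.7 and 18.3 FPKM with L-OHP and 24.9, 25.2 and 24.8 FPKM with L-OHP+FUC. The libraries of a group differed by less than 1 FPKM, and the groups were well apart. The mean rose from 18.1 ± 0.344 to 24.97 ± 0.182 FPKM (mean ± SD, n = 3), with a log2 fold change of 0.45 (SE 0.07, 95% confidence interval 0.28 to 0.62, limma adjusted p = 0.00978). It passed under all 15 alternatives (adjusted p = 0.00656 to 0.0490). Cpt2, which turns the carnitine ester back into acyl-CoA at the inner membrane, stood at 4.62, 3.91 and 3.995 FPKM with L-OHP and 5.49, 6.79 and 5.96 FPKM with L-OHP+FUC, again without overlap. It rose by a log2 fold change of 0.45 (SE 0.11, limma adjusted p = 0.0248), and kept its call in 8 of 15 alternatives. Leaving out L-OHP replicate 3 (adjusted p = 0.0644) or any L-OHP+FUC library (0.0501 to 0.0905) ended the call. Pdk4 was listed between 0 and 0.252 FPKM in the 6 libraries. Both tested oxidation genes therefore rose, where 7.67% of all tested genes did. On the linear scale the mean with L-OHP+FUC was 1.38 times that with L-OHP for Cpt1a and 1.46 times for Cpt2.

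**Figure D2:**
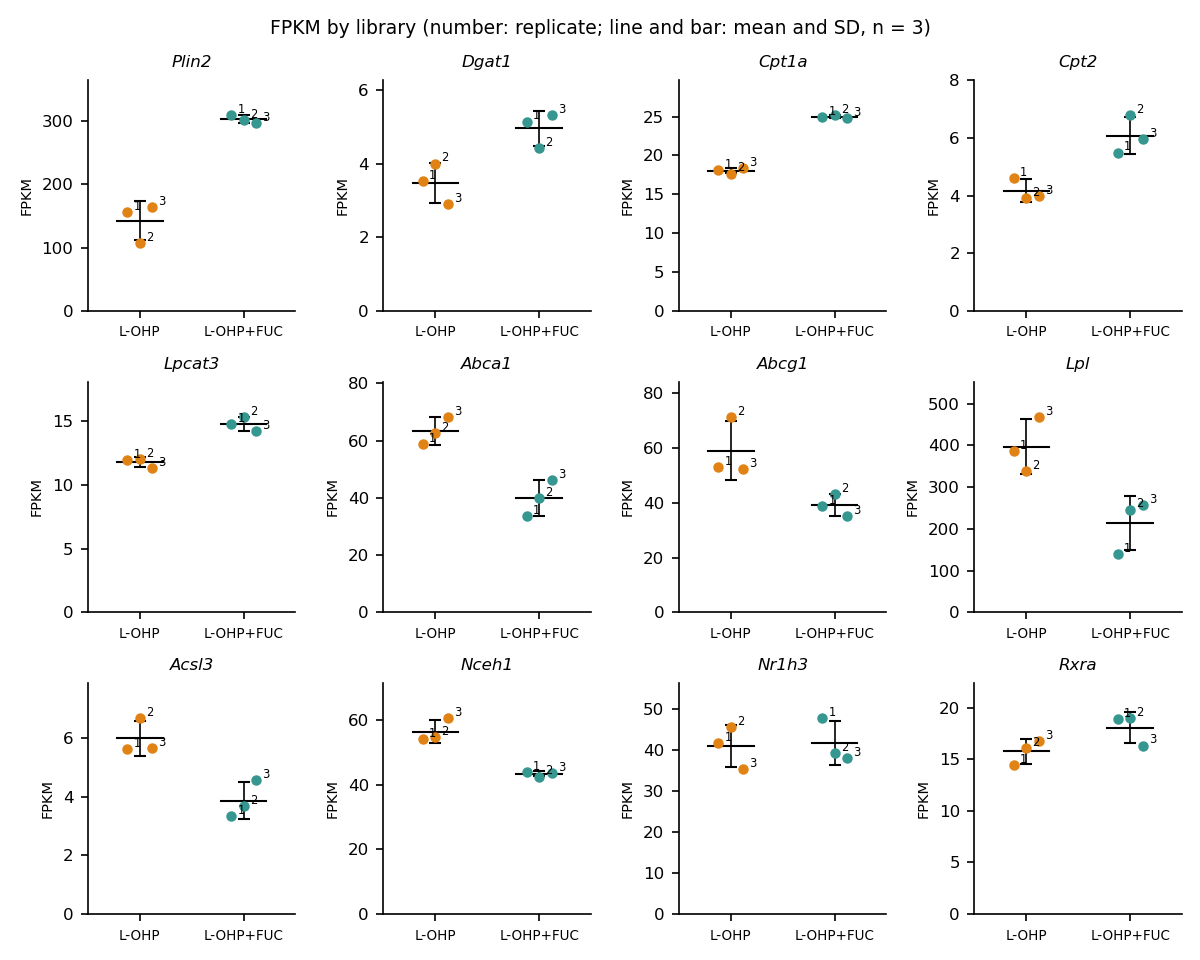
FPKM of the 10 members that passed the threshold and of Nr1h3 and Rxra, which did not, is plotted for each library on axes that start at 0. Points are libraries numbered by replicate, and lines and bars are the mean and SD of 3 replicates. The groups do not overlap for any of the 10 genes and overlap for Nr1h3 and Rxra.

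Among the 9 members listed here as LXR targets and genes of cholesterol export, 1 rose, 2 fell and 6 did not pass. Of all tested genes, 7.67% rose and 19.3% fell. Each member was placed in 1 role list only, and LXR targets were not sought in the other lists. The median log2 fold change of the 9 was -0.02 (0.10 with median ratio rescaling and 0.03 with quantile normalization). The genes of this list that fell were the pair of cholesterol transporters. Abca1, which loads cholesterol and phospholipid onto lipid-poor apolipoprotein A-I, lies on chromosome 4 at chr4:53030787-53159895 on the minus strand and stood at 58.9, 62.8 and 68.4 FPKM with L-OHP and 33.8, 39.8 and 46.2 FPKM with L-OHP+FUC. Every L-OHP+FUC library was below every L-OHP library. The mean fell from 63.4 ± 4.75 to 39.9 ± 6.23 FPKM (mean ± SD, n = 3), with a log2 fold change of -0.66 (SE 0.13, 95% confidence interval -0.97 to -0.35, limma adjusted p = 0.0149). Leaving out L-OHP+FUC replicate 2 ended the call (adjusted p = 0.0584). The GC and length correction reduced its log2 fold change to -0.31 (adjusted p = 0.0419). Abcg1, which passes cholesterol on to mature high-density lipoprotein, lies on chromosome 17 at chr17:31057675-31117988 on the plus strand and stood at 53.2, 71.5 and 52.4 FPKM with L-OHP and 38.8, 43.2 and 35.3 FPKM with L-OHP+FUC. L-OHP replicate 2 was high in its group, and the groups did not overlap. Abcg1 fell from 59.02 ± 10.8 to 39.1 ± 3.97 FPKM (mean ± SD, n = 3), with a log2 fold change of -0.57 (SE 0.15, limma adjusted p = 0.0306), a call kept in 9 of 15 alternatives. It was lost without L-OHP replicate 1 (adjusted p = 0.0591), without any one of the L-OHP+FUC libraries (0.0646 to 0.0926) and with median ratio rescaling (0.0681). The ratio of Abca1 to Abcg1 was 1.11, 0.878 and 1.31 with L-OHP and 0.870, 0.921 and 1.31 with L-OHP+FUC. The groups overlapped in this ratio, and whether it changed was not tested.

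None of the other 7 genes of that list fell. Lpcat3, which places polyunsaturated chains into phospholipids, stood at 11.97, 12.05 and 11.3 FPKM with L-OHP and 14.7, 15.4 and 14.2 FPKM with L-OHP+FUC, without overlap, and rose (log2 fold change 0.30, SE 0.08, limma adjusted p = 0.0321). It kept its call in 8 of 15 alternatives, and leaving out any library except L-OHP replicate 2 ended it (adjusted p = 0.0502 to 0.125). Lpcat3 overlaps Emg1 on the opposite strand, which stood at 6.01 and 5.95 FPKM, and whether reads were counted by strand is not given in the sources used here. Apoe, the apolipoprotein that macrophages secrete in large amounts, had the highest level of all members, 3899, 3462 and 2650.2 FPKM with L-OHP and 4287, 4133 and 3497 FPKM with L-OHP+FUC, and its groups overlapped (log2 fold change 0.26, limma adjusted p = 0.331). Apoc2, the cofactor of lipoprotein lipase from the same gene cluster, stood at 29.7, 20.5 and 31.8 FPKM with L-OHP and 39.5, 36.4 and 38.2 FPKM with L-OHP+FUC, higher in all 3 L-OHP+FUC libraries but short of the threshold (log2 fold change 0.48, adjusted p = 0.0679). It passed without L-OHP replicate 2 (adjusted p = 0.0432). The phospholipid transfer protein Pltp (0.18), the small GTPase Arl4c (-0.07), the ubiquitin ligase Mylip (-0.09), and the lipogenic transcription factor Srebf1 (-0.02) had log2 fold changes between -0.09 and 0.18 and limma adjusted p of 0.356 to 0.942. Arl4c, Mylip and Srebf1 changed sign with the scaling of the libraries. Pltp overlaps Ctsa on the opposite strand, which stood at a mean of 210 FPKM with L-OHP and 233 FPKM with L-OHP+FUC. These means exceed those of Pltp itself, 156 and 179 FPKM, so the values of Pltp may include reads of Ctsa. Srebf1 overlaps Rai1 likewise, which stood at 1.29 and 0.999 FPKM.

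None of the 3 receptor genes passed. Nr1h3, which encodes LXR alpha, stood at 41.7, 45.7 and 35.5 FPKM with L-OHP and 47.8, 39.4 and 38.1 FPKM with L-OHP+FUC (log2 fold change 0.03, 95% confidence interval -0.28 to 0.34, limma adjusted p = 0.893). Nr1h2, which encodes LXR beta, stood at 19.6, 25.8 and 14.3 FPKM with L-OHP and 24.01, 20.8 and 22.3 FPKM with L-OHP+FUC (0.19, interval -0.27 to 0.66, adjusted p = 0.489). Their partner Rxra stood at 14.5, 16.03 and 16.8 FPKM with L-OHP and 18.9, 18.96 and 16.3 FPKM with L-OHP+FUC (0.19, interval -0.05 to 0.42, adjusted p = 0.201). The groups overlapped for all 3. The intervals of all 3 include 0 and do not show that a receptor was unchanged.

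Uptake and activation genes had the lowest median of the role groups, -0.50, with none of 7 higher, 2 lower and 5 without a call, where 19.3% of all tested genes fell. After the GC and length correction the median was -0.31, with 1 higher and none lower, and without a filter none was called. Their mean deviation from each gene's mean, in log2 units, was 0.23, -0.01 and 0.25 with L-OHP. With L-OHP+FUC it was -0.33, -0.24 and 0.10, so the groups overlapped. Lpl, the secreted lipase that frees fatty acids from lipoproteins, lies on chromosome 8 at chr8:68880491-68907448 on the plus strand and stood at 385, 337 and 468 FPKM with L-OHP and 139, 246 and 256 FPKM with L-OHP+FUC. L-OHP+FUC replicate 1 was the lowest of the 6 and L-OHP replicate 3 the highest, and the groups did not overlap. The mean fell from 397 ± 66.3 to 214 ± 64.96 FPKM (mean ± SD, n = 3), with a log2 fold change of -0.93 (SE 0.25, 95% confidence interval -1.53 to -0.33, limma adjusted p = 0.0375). The call was kept in 8 of 15 alternatives. It was lost without L-OHP replicate 1 or 3 or L-OHP+FUC replicate 1 or 2 (adjusted p = 0.0630 to 0.0959) and after the GC and length correction (log2 fold change -0.71, adjusted p = 0.0575). The fatty acid binding proteins, which carry fatty acids within the cell, also had lower means with L-OHP+FUC but no call. Fabp5 stood at 261, 173 and 274 FPKM with L-OHP and 168, 172 and 156 FPKM with L-OHP+FUC (log2 fold change -0.49, adjusted p = 0.0874), and Fabp4 at 25.01, 9.61 and 32.6 FPKM with L-OHP and 11.6, 12.4 and 13.7 FPKM with L-OHP+FUC (-0.63, adjusted p = 0.265). For both, L-OHP replicate 2 lay close to or below the L-OHP+FUC libraries and apart from its own group. Without that library both passed as lower (adjusted p = 0.00940 for Fabp5 and 0.00905 for Fabp4).

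Of the 4 acyl-CoA synthetases, 1 fell and 3 did not pass, where 7.67% of all tested genes rose and 19.3% fell. Acsl3, which is found on the endoplasmic reticulum and on nascent droplets, stood at 5.62, 6.67 and 5.66 FPKM with L-OHP and 3.34, 3.66 and 4.57 FPKM with L-OHP+FUC, without overlap, and fell (log2 fold change -0.53, SE 0.12, limma adjusted p = 0.0240). The call was kept in 8 of 14 alternatives and was lost without L-OHP replicate 1, L-OHP+FUC replicate 1 or L-OHP+FUC replicate 2 (adjusted p = 0.0598 to 0.0859) and after the GC and length correction (-0.31, adjusted p = 0.0828). Acsl3 overlaps Utp14b on the same strand, which stood at 1.49 and 0.939 FPKM, so reads of both genes may not be told apart. Acsl1, an isoform induced in activated macrophages, stood at 14.8, 18.5 and 9.82 FPKM with L-OHP and 18.05, 18.8 and 36.1 FPKM with L-OHP+FUC, and only L-OHP+FUC replicate 3 was well above the rest (log2 fold change 0.69, adjusted p = 0.140). Acsl4, which prefers arachidonic acid, stood at 22.3, 21.4 and 25.1 FPKM with L-OHP and 15.8, 10.04 and 25.1 FPKM with L-OHP+FUC (-0.50, adjusted p = 0.231). Replicate 3 of L-OHP+FUC matched the highest L-OHP library there, and without it Acsl4 passed as lower (log2 fold change -0.81, adjusted p = 0.0365). Acsl5 was higher in all 3 L-OHP+FUC libraries, at 51.8, 48.7 and 45.1 FPKM with L-OHP and 54.2, 58.6 and 56.9 FPKM with L-OHP+FUC, without a call (0.22, adjusted p = 0.105), and passed after the GC and length correction (0.35, adjusted p = 0.0281).

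Of 4 genes that break down stored esters, 1 fell and 3 did not pass, where 7.67% of all tested genes rose and 19.3% fell. Nceh1, a hydrolase of cholesterol esters in macrophages, lies on chromosome 3 and stood at 53.96, 54.7 and 60.5 FPKM with L-OHP and 43.9, 42.5 and 43.6 FPKM with L-OHP+FUC, without overlap. It fell from 56.4 ± 3.58 to 43.3 ± 0.769 FPKM (mean ± SD, n = 3), with a log2 fold change of -0.37 (SE 0.08, limma adjusted p = 0.0207). Its GC content is low, 44.5%, and the GC and length correction left a log2 fold change of -0.17 without a call (adjusted p = 0.162). It also lost its call without L-OHP replicate 1, L-OHP+FUC replicate 1 or L-OHP+FUC replicate 2 (0.0542 to 0.0896). The triglyceride lipase Pnpla2 (0.09, adjusted p = 0.522) and its activator Abhd5 (-0.12, adjusted p = 0.363) had log2 fold changes close to 0. The monoglyceride lipase Mgll stood at 4.64, 4.26 and 4.88 FPKM with L-OHP and 8.03, 4.93 and 4.83 FPKM with L-OHP+FUC, with L-OHP+FUC replicate 1 alone far above the others (adjusted p = 0.277).

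No gene of fatty acid synthesis, elongation or desaturation passed among the 9 tested, and their median log2 fold change was -0.003. Elovl1, an elongase of very long chains and the highest of the group, stood at 42.9, 37.3 and 32.05 FPKM with L-OHP and 37.8, 36.5 and 55.2 FPKM with L-OHP+FUC (log2 fold change 0.18, limma adjusted p = 0.481). The desaturase Scd2 varied most between libraries of a group, at 22.2, 7.89 and 20.5 FPKM with L-OHP and 12.6, 6.05 and 11.3 FPKM with L-OHP+FUC. Replicate 2 was the lowest of both groups, and the log2 fold change was -0.63 (95% confidence interval -1.61 to 0.35, adjusted p = 0.288). With only replicates 1 and 3 of L-OHP in the fit, Scd2 passed as lower (-1.07, limma adjusted p = 0.0395). The other 7 lay between -0.13 and 0.03, namely the fatty acid synthase Fasn (-0.13), the desaturases Fads2 (-0.10), Fads1 (-0.003) and Scd1 (0.03), the acetyl-CoA carboxylase Acaca (-0.06), the citrate lyase Acly (0.02) and the elongase Elovl5 (0.03). Acaca has a near-identical pseudogene, Gm5182, listed at a mean of 1.22 FPKM with L-OHP and 1.04 FPKM with L-OHP+FUC, which can share its reads.

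Gpnmb and Trem2, both known from lipid-laden macrophages, did not pass. Gpnmb, a membrane glycoprotein, stood at 1894, 1687 and 2068 FPKM with L-OHP and 2357, 2325 and 2126 FPKM with L-OHP+FUC, with all 3 L-OHP+FUC libraries above the L-OHP libraries (log2 fold change 0.27, limma adjusted p = 0.173). Trem2, a receptor for lipids and apolipoproteins, stood at 75.99, 63.8 and 92.6 FPKM with L-OHP and 78.8, 75.3 and 66.4 FPKM with L-OHP+FUC, with overlapping groups (-0.06, adjusted p = 0.783).

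Set against each other, the storage and oxidation genes that passed were all higher with fucoidan. In the list of LXR targets and export genes, those that passed went both ways. Of 8 tested storage and oxidation genes, 4 rose and none fell, where 7.67% of all tested genes rose and 19.3% fell. Of these 4, only Plin2 and Cpt1a were called with no filter, with the replicate number as a block, without L-OHP replicate 3 and without any one L-OHP+FUC library. Among the 8, 7 had a positive log2 fold change and the median was 0.33, against 1 higher, 2 lower and -0.02 for the 9 LXR targets and export genes. The difference of the medians was 0.34. It was 0.21 without L-OHP replicate 2 and 0.46 with genes of at least 5 FPKM only, and it was positive in each of the 15 alternatives. In mean deviation from each gene's mean over the 6 libraries, in log2 units, storage and oxidation genes stood at -0.13, -0.25 and -0.14 with L-OHP and at 0.20, 0.18 and 0.13 with L-OHP+FUC. The LXR targets and export genes stood at -0.002, 0.08 and -0.04 and at 0.01, 0.05 and -0.09. Within a library, the first group minus the second was -0.12, -0.33 and -0.09 with L-OHP and 0.19, 0.13 and 0.22 with L-OHP+FUC. These values describe the chosen members and were not tested. The ratio of Plin2 to Abca1 sets the gene that rose most in the first list against the one that fell most in the second. It was 2.65, 1.71 and 2.40 in the L-OHP libraries and 9.17, 7.58 and 6.42 in the L-OHP+FUC libraries, or 2.25 ± 0.486 and 7.72 ± 1.38 (SD, n = 3). With such a pair the ratio had to differ, and it adds no support to the contrast of the lists.

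**Figure D3:**
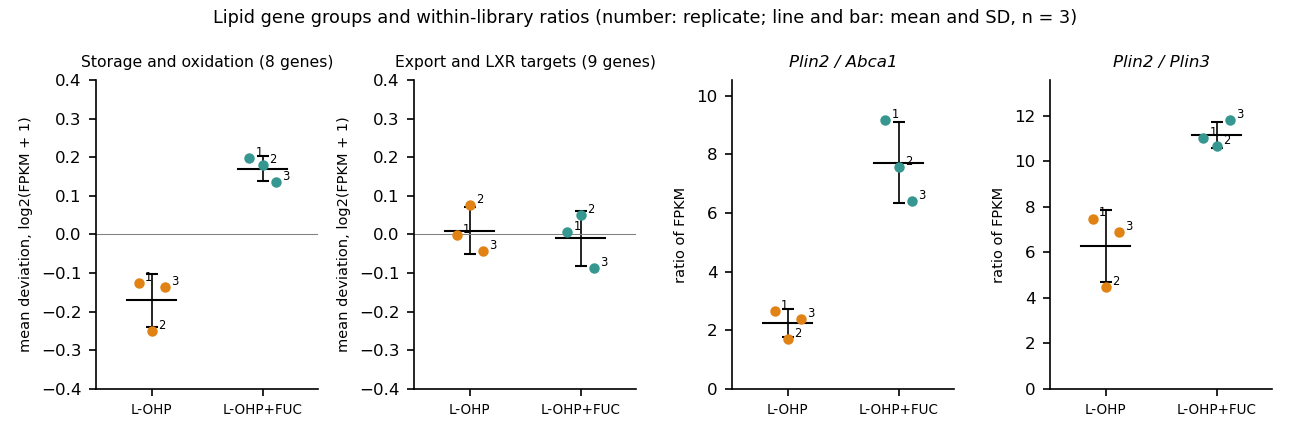
The mean deviation of the 8 storage and oxidation genes and of the 9 LXR target and export genes from their means over all libraries, in log2 units, is plotted for each of the 6 libraries in the first and second panels, and the ratios of Plin2 to Abca1 and of Plin2 to Plin3 in the others. Points are libraries numbered by replicate, with the mean and SD of 3. Storage and oxidation genes lie below 0 in all 3 L-OHP libraries and above 0 in all 3 L-OHP+FUC libraries, while the export genes stay between -0.09 and 0.08.

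Promoter windows were read for the members because LXR and the fatty acid receptors PPAR bind, with RXR, to repeats of the hexamer AGGTCA. RefSeq (GRCm38.p6) windows of 300 bases, 250 before and 50 after the start, were matched for 35 of the 44 members, 45 windows in all. The search covered both strands. The repeat with 4 bases between (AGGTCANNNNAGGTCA, the LXR type, at most 1 mismatch in each hexamer) was found in 1 member, Acsl3, or 2.22% of member windows against 1.75% of all 32851 windows. The repeat with 1 base between (AGGTCANAGGTCA, the PPAR type, at most 1 mismatch in each hexamer) was found in Apoc2, Elovl1 and Rxra, or 6.67% against 2.40%. The single hexamer without mismatch, which can lie inside either repeat, was found in 9 members, among them Plin2 and Cpt1a, or 20.0% of member windows against 16.3%. The sterol element TCACNCCAC was found in Acsl1 only, or 2.22% against 1.24%. The 250 bases before the start are shown for the 2 members that rose in every setting, with the hexamer in capitals as it reads on the printed strand (TGACCT, its reverse complement), and for Acsl3 and Abca1, with the closest match to the LXR-type repeat in capitals, likewise on the opposite strand. All are 5′ to 3′ on the strand of the gene. Plin2 is chr4:86670060-86670309 on the minus strand, Cpt1a chr19:3323051-3323300 on the plus strand, Acsl3 chr1:78657575-78657824 on the plus strand and Abca1 chr4:53159896-53160145 on the minus strand.
Plin2: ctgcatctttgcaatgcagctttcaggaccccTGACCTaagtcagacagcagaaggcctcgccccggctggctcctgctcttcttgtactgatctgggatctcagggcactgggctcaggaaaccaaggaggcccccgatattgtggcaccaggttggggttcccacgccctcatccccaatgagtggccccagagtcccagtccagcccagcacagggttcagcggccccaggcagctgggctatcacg
Cpt1a: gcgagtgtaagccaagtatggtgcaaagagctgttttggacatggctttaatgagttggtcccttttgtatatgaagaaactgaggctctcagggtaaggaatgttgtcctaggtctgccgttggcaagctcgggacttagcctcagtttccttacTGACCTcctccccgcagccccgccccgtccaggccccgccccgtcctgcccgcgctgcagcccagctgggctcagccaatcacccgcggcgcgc
Acsl3: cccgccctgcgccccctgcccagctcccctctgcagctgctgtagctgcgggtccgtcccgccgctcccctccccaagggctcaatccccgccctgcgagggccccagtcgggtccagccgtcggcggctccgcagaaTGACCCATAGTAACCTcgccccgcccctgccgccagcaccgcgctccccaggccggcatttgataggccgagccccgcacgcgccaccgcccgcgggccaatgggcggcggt
Abca1: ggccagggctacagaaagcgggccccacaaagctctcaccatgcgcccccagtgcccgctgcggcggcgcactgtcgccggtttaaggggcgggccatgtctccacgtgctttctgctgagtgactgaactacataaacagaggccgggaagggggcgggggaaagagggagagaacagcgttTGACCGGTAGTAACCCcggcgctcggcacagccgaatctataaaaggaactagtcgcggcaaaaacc

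Counted back from the start, the hexamer lies at bases -218 to -213 of Plin2 and -94 to -89 of Cpt1a. The RefSeq start used for Cpt1a lies inside the gene span given for it above. Its printed bases and hexamer therefore lie within that span. The repeat of Acsl3 lies at -112 to -97 and reads AGGTTACTATGGGTCA on its own strand, with 2 mismatches over the 12 hexamer letters, as few as 2.57% of all windows hold. The closest match of Abca1 lies at -67 to -52, reads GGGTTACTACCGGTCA and has 3 mismatches, as few as 18.5% of all windows hold. These 2 stretches were compared after the windows had been seen and share 13 of 16 letters. The shares of 2.57% and 18.5% cover only the 250 bases before the start. They count mismatches summed over both hexamers, unlike the shares of the search above. A match is a description of the letters, and no binding was measured.

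The members that fell were poorer in G and C than those that rose. Median GC content of the longest transcript was 52.6% (51.3% to 56.5%) for the 5 that rose, 44.5% (43.2% to 52.7%) for the 5 that fell and 51.6% for the 32 without a call. All tested genes had the same order, 53.9% for those that rose and 46.4% for those that fell. Across the 42 members, which share the same 6 libraries and are not independent replicates, GC content and log2 fold change had Pearson's r = 0.46 and Spearman's rho = 0.45, and 0.15 and 0.13 after the correction for GC content and length. That correction left 5 members higher (Plin2, Cpt1a, Cpt2, Lpcat3 and, new, Acsl5) and 2 lower (Abca1 and Abcg1). Lpl, Acsl3 and Nceh1, whose GC content is 43.2% to 44.5%, lost their calls as lower, and Dgat1, with 56.5%, lost its call as higher (log2 fold change 0.28, adjusted p = 0.101). The part of GC content in the library preparation was not tested.

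**Figure D4:**
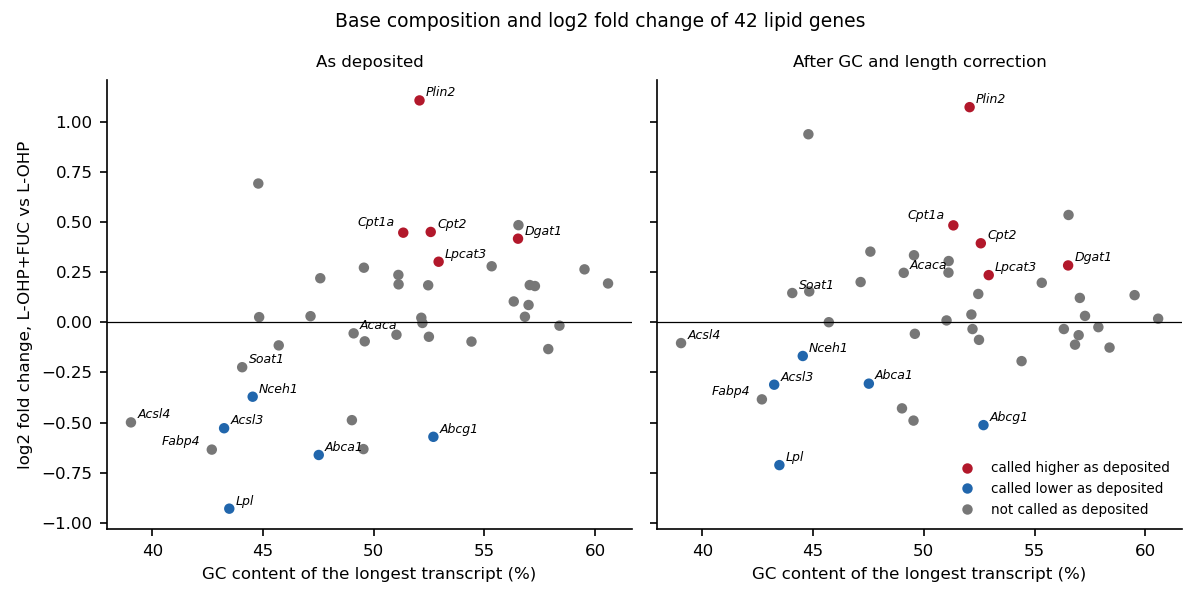
GC content of the longest transcript, in percent, is plotted on the horizontal axis against the log2 fold change of the 42 tested members, as deposited on the left and after the correction for GC content and length on the right, coloured by the call as deposited. Of the 5 that fell, 3 lie below 45% GC, and Abca1 and Abcg1 lie above it.

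The other genes of the same pathways, none of them among the 44, were tested in the same fit. Of 70 tested, 12 rose and 8 fell, or 28.6%, close to the 27.0% of all tested genes. With median ratio rescaling 19 rose and 5 fell, where 1581 and 1680 of all 12084 genes did. With quantile normalization 15 rose and 3 fell, where 1565 and 1359 did, and after the GC and length correction 16 and 5, where 1390 and 1437 of 12074 did. In mitochondrial and peroxisomal beta-oxidation, 5 of 20 rose, none fell and 15 did not pass, with a median log2 fold change of 0.20, where 7.67% of all tested genes rose. Only Slc25a20 and Etfb, 2 of the 20, rose without L-OHP replicate 1, without L-OHP+FUC replicate 1 or 2, or with the replicate number as a block. Acadm, a medium-chain dehydrogenase, passed as lower without L-OHP replicate 2, and the hydratase Echs1 without L-OHP+FUC replicate 1. Slc25a20, the carrier that takes acylcarnitines across the inner membrane between the steps of Cpt1a and Cpt2, rose from 4.14 ± 0.217 to 6.68 ± 0.190 FPKM (mean ± SD, n = 3), with a log2 fold change of 0.58 (limma adjusted p = 0.00747). Thus Cpt1a, Slc25a20 and Cpt2 each had a higher mRNA level with fucoidan, although Cpt2 kept its call in only 8 of 15 alternatives. Etfb, a subunit of the flavoprotein that takes electrons from acyl-CoA dehydrogenases, rose from 15.9 ± 1.07 to 27.9 ± 2.70 FPKM (0.77, adjusted p = 0.00637), and the short-chain dehydrogenase Acads from 7.56 ± 0.492 to 11.1 ± 1.24 FPKM (0.49, adjusted p = 0.0180). Slc25a20 and Etfb passed in all 15 alternatives and Acads in 9. The remaining calls, Hadha (0.32, adjusted p = 0.0256) and Ehhadh (0.33, adjusted p = 0.0483), are named after their values were seen. Ehhadh reached 0.5 FPKM only in the L-OHP+FUC libraries, so the filter required it to differ and it adds no support to the count.

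Among 16 tested genes of droplet assembly and glycerolipid synthesis, 3 rose, 2 fell and 11 did not pass, where 7.67% and 19.3% of all tested genes rose and fell. Agpat4, an acyltransferase that makes phosphatidic acid, rose from 10.1 ± 0.584 to 25.3 ± 2.54 FPKM (mean ± SD, n = 3), with a log2 fold change of 1.24 (SE 0.10, limma adjusted p = 0.00336), a larger estimate than that of Plin2. Gpat4, which acylates glycerol phosphate in the step before (0.42, adjusted p = 0.0117), and Bscl2, the seipin that shapes nascent droplets (0.50, adjusted p = 0.0122), also rose. Gpat4 lost its call in 1 of 15 alternatives and the other pair in none. The 2 that fell were the phosphatidate phosphatase Lpin1 (-0.49, adjusted p = 0.0341) and the cholesterol acyltransferase Soat2 (-0.49, adjusted p = 0.0299), named after their values were seen. Neither was called with median ratio rescaling or quantile normalization.

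Of 18 tested control genes of nuclear receptors and of the sterol response, 2 rose, 6 fell and 10 did not pass, with a median of -0.22. All tested genes leaned the same way, with 927 higher, 2335 lower and a median of -0.10. Insig1, which retains the sterol sensor in the endoplasmic reticulum, stood at 27.7, 34.2 and 24.1 FPKM with L-OHP and 13.4, 14.3 and 14.3 FPKM with L-OHP+FUC and fell (log2 fold change -0.97, limma adjusted p = 0.00667). The coactivator Ncoa3 fell from 16.4 ± 0.574 to 9.65 ± 0.277 FPKM (-0.71, adjusted p = 0.00432) and the corepressor Ncor1, which holds unliganded receptors silent, from 9.03 ± 0.343 to 5.04 ± 0.930 FPKM (-0.74, adjusted p = 0.0104). The other calls, named after their values were seen, were the coactivators Ncoa1 (-0.57), Ncoa2 (-0.53) and Ncoa6 (-0.49) as lower, and as higher the sterol sensor Scap (0.42) and the glucose-responsive transcription partner Mlx (0.46). With quantile normalization none of Ncoa1, Ncoa2 and Ncoa6 was called, and the median of the list was -0.09. Insig1 and Ncoa3 passed in all 15 alternatives. Ppara, the receptor best known for driving Cpt1a in liver, was listed at 0 in all 6 libraries. Pparg stood at 8.54, 5.87 and 10.1 FPKM with L-OHP and 6.33, 6.17 and 6.65 FPKM with L-OHP+FUC (limma adjusted p = 0.258). It passed as lower without L-OHP replicate 2. Ppard, the remaining PPAR, had a higher mean with L-OHP+FUC. It stood at 2.13, 2.92 and 2.21 FPKM with L-OHP and 5.76, 2.61 and 3.20 FPKM with L-OHP+FUC, with overlapping groups. It did not pass (log2 fold change 0.46, limma adjusted p = 0.188), but had a q-value of 0.0247 in the authors' deposited table. In the last list, further uptake and efflux genes, 2 of 16 rose and none fell, where 7.67% and 19.3% of all tested genes did. They were the fatty acid transport protein Slc27a4 (6.35 ± 0.889 to 10.9 ± 0.377 FPKM, 0.70, adjusted p = 0.00867) and the lysosomal cholesterol transporter Npc1 (34.5 ± 7.13 to 50.5 ± 3.80 FPKM, 0.56, adjusted p = 0.0418), which passed in all 15 and in 6 of 15 alternatives. The scavenger receptor Cd36, named after its values were seen, stood at 188, 155 and 234 FPKM with L-OHP and 226, 268 and 274 FPKM with L-OHP+FUC (adjusted p = 0.101). It passed as higher with median ratio rescaling, with the GC and length correction, with or without the block, and without L-OHP replicate 3. The sterol carrier Scp2 passed as lower without L-OHP replicate 2.

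**Figure D5:**
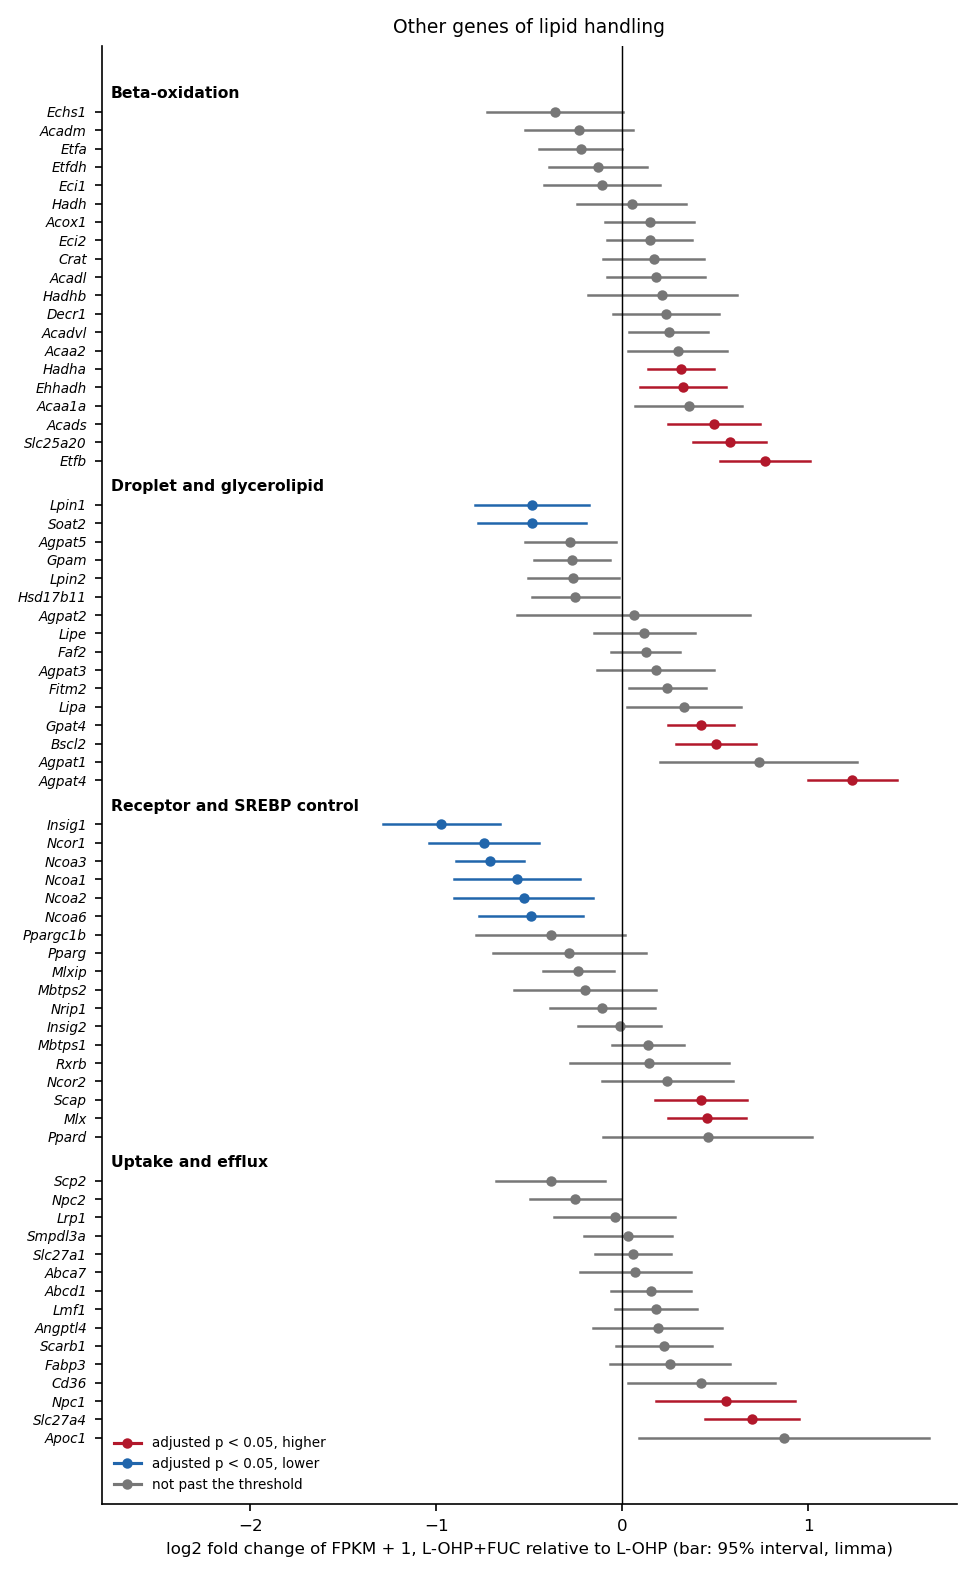
The log2 fold change of the tested pathway genes that are not members, all but 1 of the 70, L-OHP+FUC relative to L-OHP, is plotted with its 95% confidence interval, grouped in 4 lists. Agpat4 lies farthest to the right at 1.24 and Insig1 farthest to the left at -0.97, and no beta-oxidation gene passed as lower with all 6 libraries.

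In the authors' deposited table, 10 members had a q-value under 0.05, 7 of them higher and 3 lower, where 22.9% of the same 12084 genes did. Of these, 8 were also called by limma, all with the same sign. Apoc2 and Acsl1 passed only in the authors' deposited table, and Acsl3 and Nceh1 only by limma.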

How the data were processed

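Ribosomal RNA was removed from the total RNA of 6 BMDM samples by probe capture, and libraries were primed at random, per the labels' protocols. The submitters' processing notes name HISAT2, StringTie, DESeq2, limma, bcl2fastq 2.0 and mm10, without roles. Strand use, annotation release and read counting are not given in the sources used.

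Per the file headers, the authors deposited FPKM. Their table writes 0.0001 for 0, and these entries were read as 0. The deposited fold column is a ratio, the deposited log2 column its log2, and the deposited p-value and q-value columns come from a tool that is not named. The implied depth came from the steps between low FPKM values. Whole numbers within 0.05 fragments made up 35.6% to 40.5% of low values, so no counts were recovered and no count test was run.

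Here limma 3.58.1 (R 4.3.3) was fitted to log2(FPKM + 1) of the 12084 genes reaching 0.5 FPKM in 3 or more of the 6 libraries, with group as the only term, trended empirical Bayes moderation, two-sided p-values, Benjamini-Hochberg adjustment and a threshold of 0.05. Fold changes on this scale understate the change of low genes. The code was checked on simulated data. For 254 rows that share a symbol with another row, the row with the higher mean was used. GENCODE M21 (GRCm38, which is mm10) gave positions, GC content and transcript lengths for 99.5% of rows. No pair of libraries shared more than 13 identical values. The GC and length correction subtracted a loess trend (span 0.3, 4 robust iterations) from each library.

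The members, gene lists, markers and tests were chosen with earlier results of these data known. The rule was to name every member, with values per library for called members, receptors and the highest member of each role group, and in each pathway list the 3 genes with the smallest p past the threshold. Library values of further members, and values or calls of Pparg, Ppara, Ppard, Cd36, Acadm, Echs1, Scp2 and single marker genes, go beyond that rule. They were chosen after they were seen. The values of 1 pathway gene are not reported here. Same-numbered libraries did not deviate together (correlations -0.04, -0.07 and 0.08), so the replicate number was not used in the fit. Alternatives were quantile normalization, median ratio rescaling, a pseudocount of 0.1, a minimum mean of 5 FPKM, testing without a filter, the GC and length correction, the replicate block with and without it, no trend, and leaving out each library.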

Additional observations from a re-analysis of the deposited data

How the results depend on the processing

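With 3 samples a group, calls near the threshold depended on single libraries, and FPKM without counts give no counting error. Plin2 and Cpt1a were called in all 15 alternatives. Leaving out each library in turn gave 2 to 6 members higher, 0 to 8 lower, 8 to 24 other pathway genes called and a difference of medians of 0.21 to 0.42. The fewest came without L-OHP+FUC replicate 2 and the most without L-OHP replicate 2, which also gave the smallest difference. With no filter, 3 members were higher and 2 lower, with 12 other pathway genes, as more genes were tested. A mean of at least 5 FPKM left 35 members and a difference of 0.46. Median ratio rescaling gave 8 higher (adding Apoc2, Acsl5 and Plin3) and 3 lower, and the GC and length correction left 2 lower; the cause was not tested. With no mismatch allowed, 0 members held the repeat with 4 or with 1 base between.

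With the replicate number as a block, 2 members were higher (Plin2 and Cpt1a), 5 lower (Scd2 in place of Nceh1) and 13 other pathway genes were called. With the block and the GC and length correction, 2 were higher, 1 lower (Abcg1) and 12 other pathway genes were called. The numbers do not pair the samples, and of the L-OHP libraries only replicate 3 correlated best with its own number.

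Signs that turned belong to members without a call. Median ratio rescaling gave Arl4c 0.0472, Mylip 0.0294, Srebf1 0.10, Acaca 0.0281, Fads1 0.11 and Trem2 0.0642. Quantile normalization gave Srebf1 0.0263, Acaca 0.17, Fads1 0.0612, Fads2 0.12 and Abhd5 0.00501. The GC and length correction, with or without the block, gave Nr1h3 -0.11, Acaca 0.25, Dgat2 -0.0335, Soat1 0.15, Pnpla2 -0.0642, Abhd5 0.000548 and Trem2 0.00938. Over the libraries left out, log2 fold changes ran from -0.0789 to 0.0639 for Fads1, -0.17 to 0.0193 for Mylip, -0.12 to 0.14 for Srebf1, -0.0103 to 0.0687 for Acly, -0.0562 to 0.14 for Scd1, -0.0278 to 0.31 for Hilpda, -0.0716 to 0.11 for Nr1h3, -0.0109 to 0.39 for Nr1h2, -0.19 to 0.0732 for Trem2, -0.0162 to 0.18 for Dgat2 and -0.00201 to 0.29 for Elovl1.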
